A study of Mus musculus with 4 samples.

Results

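The 9 genes described here encode signals by which the dermal papilla starts hair growth, together with FGF receptors that read such signals in the follicle epithelium. The growth factor genes are Fgf7, Fgf10, Tgfb2 and Hgf, the R-spondin genes are Rspo1, Rspo2 and Rspo3, and the receptor genes are Fgfr1 and Fgfr2. They were chosen by name from 21883 protein-coding genes on the 21 standard chromosomes, with peak counts around them already known, in particular those at Fgf10 and Rspo3. Every count below is therefore a description of these lists and was not tested.

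Mouse hair follicle stem cells (HFSC) were assayed by ATAC-seq, which reads accessible DNA from the sites where the Tn5 enzyme inserts. The groups were Irx5KO with 2 samples and WT with 2 samples. The gene named in the genotype, Irx5, codes for an Iroquois homeodomain protein that binds DNA. Cells of both genotypes were sorted as Ly-6A/E-, CD34+ and positive for a marker labelled CD45f. The allele behind the Irx5KO label, the strain, the age and the stage of the hair cycle were not stated in the sources used here. Each genotype had 1 pooled peak list made from its 2 samples, so the spread between animals or preparations is unknown and genotypes could not be tested against each other. Read depth is not recorded in the lists. They held 484992 peaks for Irx5KO and 498061 peaks for WT. At Irx5 itself both lists had peaks at a gene end, 1785 bp in Irx5KO and 780 bp in WT, which does not check the genotype, since the change made to the gene is not stated.

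A hair follicle rests in telogen and grows in anagen. The dermal papilla is a cluster of mesenchymal cells under the follicle. In telogen the hair germ lies next to it, and the stem cells of the bulge lie above the germ. FGF7 and FGF10 leave the papilla and bind the epithelial form of FGFR2. R-spondins bind LGR receptors and keep Frizzled receptors on the cell surface, which raises the response to WNT. TGF-beta 2 counters BMP signals that hold the stem cells at rest, and HGF acts through the receptor MET. The ligands are thus mainly made by dermal cells, whereas the cells profiled here were sorted as epithelial stem cells.

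Promoter sequences were read from RefSeq on GRCm38.p6, the assembly also called mm10, for 6 of the 9 genes. Fgfr1, Rspo2 and Rspo3 had no entry in that table. Shown are the 250 bases before the annotated start for 4 genes whose start windows differed in peak coverage between the lists. They are written 5′ to 3′ on the strand of the gene. The start window of Hgf differed too, but its sequence is not shown. Capitals mark the bases that lay under an Irx5KO peak.
Fgf10 (chr13:118714449-118714698, plus strand): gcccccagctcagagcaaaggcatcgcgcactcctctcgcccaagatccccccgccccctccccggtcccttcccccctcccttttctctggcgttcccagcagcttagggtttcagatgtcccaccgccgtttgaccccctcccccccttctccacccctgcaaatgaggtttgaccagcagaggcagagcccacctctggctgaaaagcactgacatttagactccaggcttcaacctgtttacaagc
Fgfr2 (chr7:130266809-130267058, minus strand): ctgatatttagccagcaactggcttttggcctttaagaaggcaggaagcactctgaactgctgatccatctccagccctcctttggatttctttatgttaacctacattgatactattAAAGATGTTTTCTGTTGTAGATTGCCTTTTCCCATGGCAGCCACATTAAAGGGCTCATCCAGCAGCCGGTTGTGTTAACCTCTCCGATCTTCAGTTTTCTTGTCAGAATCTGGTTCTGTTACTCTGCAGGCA
Rspo1 (chr4:124986180-124986429, plus strand): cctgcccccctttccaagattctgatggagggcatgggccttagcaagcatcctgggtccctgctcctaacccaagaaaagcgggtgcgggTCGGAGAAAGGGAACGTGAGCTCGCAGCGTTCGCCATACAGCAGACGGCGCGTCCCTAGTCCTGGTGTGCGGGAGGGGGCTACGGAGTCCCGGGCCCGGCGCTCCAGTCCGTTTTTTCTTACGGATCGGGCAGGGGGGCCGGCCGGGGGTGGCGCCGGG
Tgfb2 (chr1:186705990-186706239, minus strand): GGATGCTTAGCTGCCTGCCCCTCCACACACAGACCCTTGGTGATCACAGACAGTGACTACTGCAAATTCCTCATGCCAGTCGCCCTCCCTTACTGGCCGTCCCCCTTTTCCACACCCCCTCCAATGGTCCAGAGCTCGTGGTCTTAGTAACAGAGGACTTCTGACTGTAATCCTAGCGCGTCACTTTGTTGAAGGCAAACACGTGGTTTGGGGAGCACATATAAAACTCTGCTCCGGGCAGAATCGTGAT
Of the 250 bases at Fgfr2, 132 lay under an Irx5KO peak and 0 under a WT peak. At Rspo1 the numbers were 159 bases in Irx5KO and 129 in WT, and at Tgfb2 all 250 bases lay under a peak in each list. At Fgf10 no base was covered in either list. Of the 250 bases before the first Hgf start, 250 lay under an Irx5KO peak and 134 under a WT peak. Over 21262 promoters of coding genes the mean was 146 bases in Irx5KO and 133 in WT, and 20.8% had more covered bases in Irx5KO against 8.73% in WT.

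The 4 promoters also differed in base composition. Rspo1 held 22 CpG dinucleotides, Fgf10 and Tgfb2 held 8 each and Fgfr2 held 2, where the median of all promoters was 10. Both strands were searched for 4 short motifs, none of which overlapped another in these sequences. The TATA box letters TATAAA stood 31 bases before the Tgfb2 start and CCAAT stood 130 bases before it. CCAAT also stood 53 bases before the Fgf7 start. Of all promoters 11.6% held TATAAA and 35.4% held CCAAT. The palindrome ACANNTGT, known as a site of Iroquois proteins in Drosophila, and the AP-1 letters TGANTCA were in none of the windows of the 6 genes, and in 5.26% and 6.13% of all promoters.

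Peaks at the gene starts covered more bases in the Irx5KO list than in the WT list at most of the genes. A start window reached 1000 bp to each side of the annotated start, of both starts listed for Hgf, or of either gene end for Fgfr1, Rspo2 and Rspo3, whose strand the tables used here do not give. A window held more covered bases in Irx5KO at 7 of the 9 genes and in WT at 1, Rspo2. Over all coding genes 53.4% had more in Irx5KO and 25% had more in WT, so a lead of Irx5KO was frequent throughout the lists. The medians were 890 bp in Irx5KO and 400 bp in WT over the 9 genes, and 830 bp and 670 bp over all coding genes.

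Rspo3 differed most at its ends, with 1324 bp under Irx5KO peaks and 0 bp under WT peaks. An Irx5KO peak of 1300 bp (chr10:29534951-29536250) lay over the upper end of the gene. The nearest WT peak (chr10:29534521-29534840) ended 1027 bp inside that end, so it lay just outside the window. Both lists thus had peaks close to that end of Rspo3, and the Irx5KO peak ran across it.

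**Figure D1:**
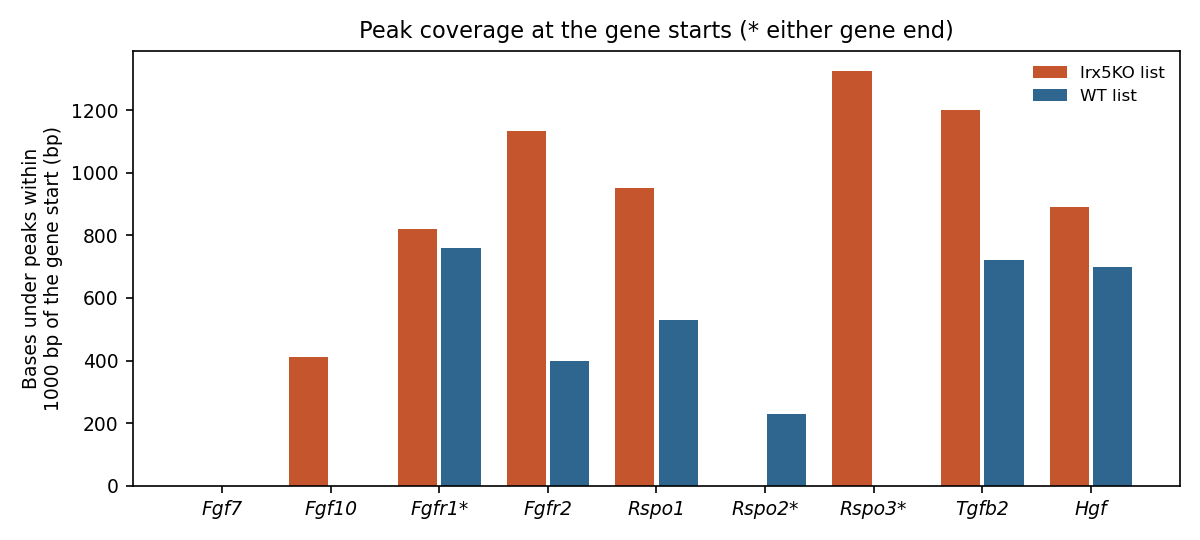
Bases under peaks (bp) within 1000 bp of the gene start for each of the 9 genes, with the Irx5KO list left and the WT list right of each pair. Genes with an asterisk were measured at either gene end. Fgf10 and Rspo3 show 410 and 1324 bp in Irx5KO and 0 bp in WT, Rspo2 shows 0 bp in Irx5KO and 230 bp in WT, and Fgf7 has no bar in either list.

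The Fgf10 start had an Irx5KO peak of 410 bp (chr13:118714881-118715290) that began 182 bp inside the gene. It had a low score, at percentile 7.62 of its list, where the percentile is the share of a list's peaks with an equal or lower score given by the authors. The nearest WT peak lay 6.899 kb before the start. At Fgfr2 the start lay under an Irx5KO peak of 1950 bp (chr7:130264991-130266940), while the nearest WT peak (chr7:130265831-130266230) stopped 578 bp inside the gene. The Fgfr2 window held 1133 bp under Irx5KO peaks and 400 bp under WT peaks. At the Fgfr1 end at chr8:25518759 the lists were close, with 820 bp in Irx5KO and 760 bp in WT.

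Rspo1, Tgfb2 and Hgf had peaks over their starts in both lists. At Rspo1 peaks covered 950 bp in Irx5KO and 530 bp in WT, with 1200 bp and 720 bp at Tgfb2 and 890 bp and 700 bp at Hgf, each with Irx5KO first. Fgf7 had no peak within 1000 bp of its start in either list, as 17.7% of all coding genes did not. The nearest peaks lay 2.768 kb away in Irx5KO and 2.968 kb away in WT. By presence alone 2 of the 9 genes, Fgf10 and Rspo3, had a start peak in Irx5KO only, where 6.01% of all coding genes did. Rspo2 had a start peak in WT only, as 3.73% of all coding genes did, and 5 genes had a peak in both lists, where 72.6% of all did. With windows of 3000 bp Fgf10 was the single gene of the 9 with a start peak in 1 list alone, in Irx5KO, as were 4.61% of all coding genes. In the upper 50% of both lists by score Fgfr1 and Rspo1 had a start peak in Irx5KO only, as did 12.2% of all.

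Across the wider loci the ligand genes mostly carried more peaks listed in WT only, and the FGF receptor genes more peaks listed in Irx5KO only. A locus here is the gene body plus 50 kb on each side. A peak is shared where it overlaps the other list by at least 1 bp, and genotype-only otherwise. In the Irx5KO list the 9 loci held 75 genotype-only and 136 shared peaks, and in the WT list 92 and 140. Irx5KO-only peaks made up 44.9% of all genotype-only peaks (95% Wilson interval 37.6 to 52.5, counting error only), against 49.3% (49.2 to 49.5) over all coding genes. Neighbouring peaks and overlapping loci are not independent, so these intervals are too narrow. Peaks in Irx5KO only outnumbered those in WT only at 3 of the 9 genes, as at 46.6% of all coding genes, and the reverse held at 5, as at 41.3%. In a bulk profile more cells of a type and more open chromatin per cell cannot be told apart.

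At the 7 ligand genes 51 peaks were Irx5KO-only and 85 WT-only, which gives an Irx5KO share of 37.5%. The WT-only excess of Fgf10 and Rspo3 is part of how the genes were chosen, and at the other 5 ligand genes 37 peaks were Irx5KO-only and 48 WT-only, which gives 43.5% (33.5 to 54.1). At the 2 receptor genes 24 were Irx5KO-only and 7 WT-only, which gives 77.4%. Over all genes with at least 5 genotype-only peaks, the median share per gene was 50%, and over the 9 genes it was 40.6%.

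**Figure D2:**
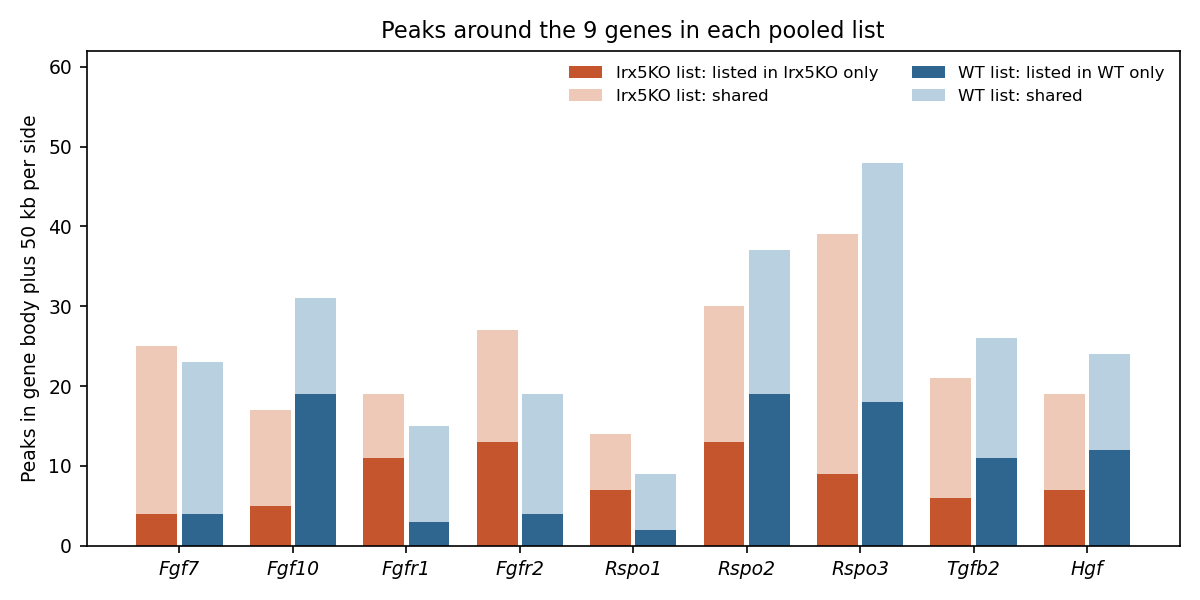
Number of peaks in the gene body plus 50 kb per side of each gene, with the Irx5KO list left and the WT list right of each pair. Dark segments are genotype-only peaks and light segments are shared peaks. Genotype-only peaks number 5 in Irx5KO and 19 in WT at Fgf10, and 13 in Irx5KO and 4 in WT at Fgfr2.

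A gene was taken as past a 2-fold rule where it had at least 5 genotype-only peaks and at least 2 times as many in 1 list as in the other. Fgfr1, Fgfr2 and Rspo1 were past it towards Irx5KO, 3 of 9 genes, where 21.8% of all coding genes were. Fgf10 and Rspo3 were past it towards WT, 2 of 9 genes, where 16.7% of all were. These counts restate how the genes were chosen and lie near the background.

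**Figure D3:**
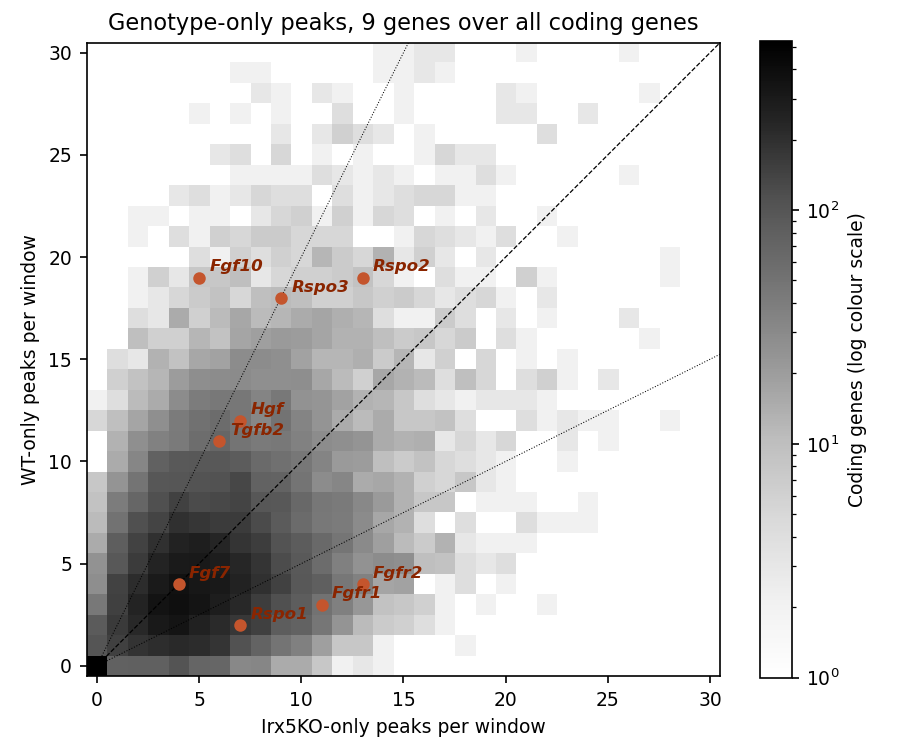
Irx5KO-only peaks (x axis) against WT-only peaks (y axis) per locus for all coding genes in grey (log colour scale) and for the 9 genes as labelled points. The dashed line marks equal numbers and the dotted lines a 2-fold difference, and 328 of 21883 genes lie beyond the axes. Fgf10 lies furthest above the dashed line and Fgfr2 furthest below it among the 9 genes.

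Of the FGF ligands, Fgf10 (chromosome 13, 118714699 to 118792573) showed the largest difference of the 9 genes. Its locus held 5 Irx5KO-only and 19 WT-only peaks, beside 12 shared peaks in each list. A difference at least as far towards WT was found at 416 of the 21883 coding genes. The Fgf10 difference was part of how the genes were chosen, so this position is only a description. At least as far towards WT as Rspo3 were 5.02% of coding genes, as Rspo2 11.4%, and as Tgfb2 and Hgf 15.0% each. At least as far towards Irx5KO as Rspo1 were 14.8%. These differences were not scaled by locus length. The Fgf10 locus spans 178 kb, where the median over all coding genes is 117 kb. Irx5KO peaks covered 3.37% of the locus and WT peaks 5.43%. No other coding gene overlapped it.

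The WT-only peaks of Fgf10 lay in both flanks and in the gene body. None lay between positions 118699150 and 118740181, a stretch that contains the start. The upstream flank held 1 Irx5KO-only and 7 WT-only peaks, the gene body 3 and 5, and the downstream flank 1 and 7, each with Irx5KO first. A stretch of 23.29 kb upstream (chr13:118664721-118688010) without an Irx5KO peak held 5 of the WT-only peaks. In the upper 50% of their own list lay 0 of the Irx5KO-only and 4 of the WT-only peaks. The highest-scored of these, at percentile 66.6, lay inside the gene (chr13:118777621-118777950), 62.9 kb after the start. The highest-scored Irx5KO-only peak (chr13:118774771-118775000) was at percentile 10.2. Exons and introns were not told apart, since the gene table gives only gene ends.

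The highest-scored peaks of Fgf10 were shared. The highest-scored Irx5KO peak (chr13:118812381-118813170) lay beyond the downstream end of the gene, at percentile 89.8, wholly under a WT peak. The highest-scored WT peak (chr13:118751601-118752240) lay in the gene body, at percentile 85.4, and 600 of its 640 bp were under an Irx5KO peak. At the margin of the locus an Irx5KO-only peak (chr13:118664511-118664720) straddled the border at 118664699.

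Fgf7 (chromosome 2, 126034658 to 126091185), the other FGF ligand gene, showed no such difference in number. Its locus held 4 Irx5KO-only and 4 WT-only peaks, and 21 and 19 shared peaks in Irx5KO and WT. Peaks covered 18.7% of it in Irx5KO and 18.8% in WT, the largest share of the 9 genes in both lists. Peaks of 6.39 kb and 6.28 kb in Irx5KO, and of 6.4 kb and 6.25 kb in WT, contributed to that coverage. Those of 6.28 kb and 6.25 kb ran past the border of the locus at 126141185 and counted only up to it. The highest-scored Irx5KO-only peak of Fgf7 (chr2:126008421-126008770) lay upstream, at percentile 80.6, and the highest-scored WT-only peak (chr2:126135381-126135750) lay downstream, at percentile 50.9. Fam227b also overlapped this locus.

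**Figure D4:**
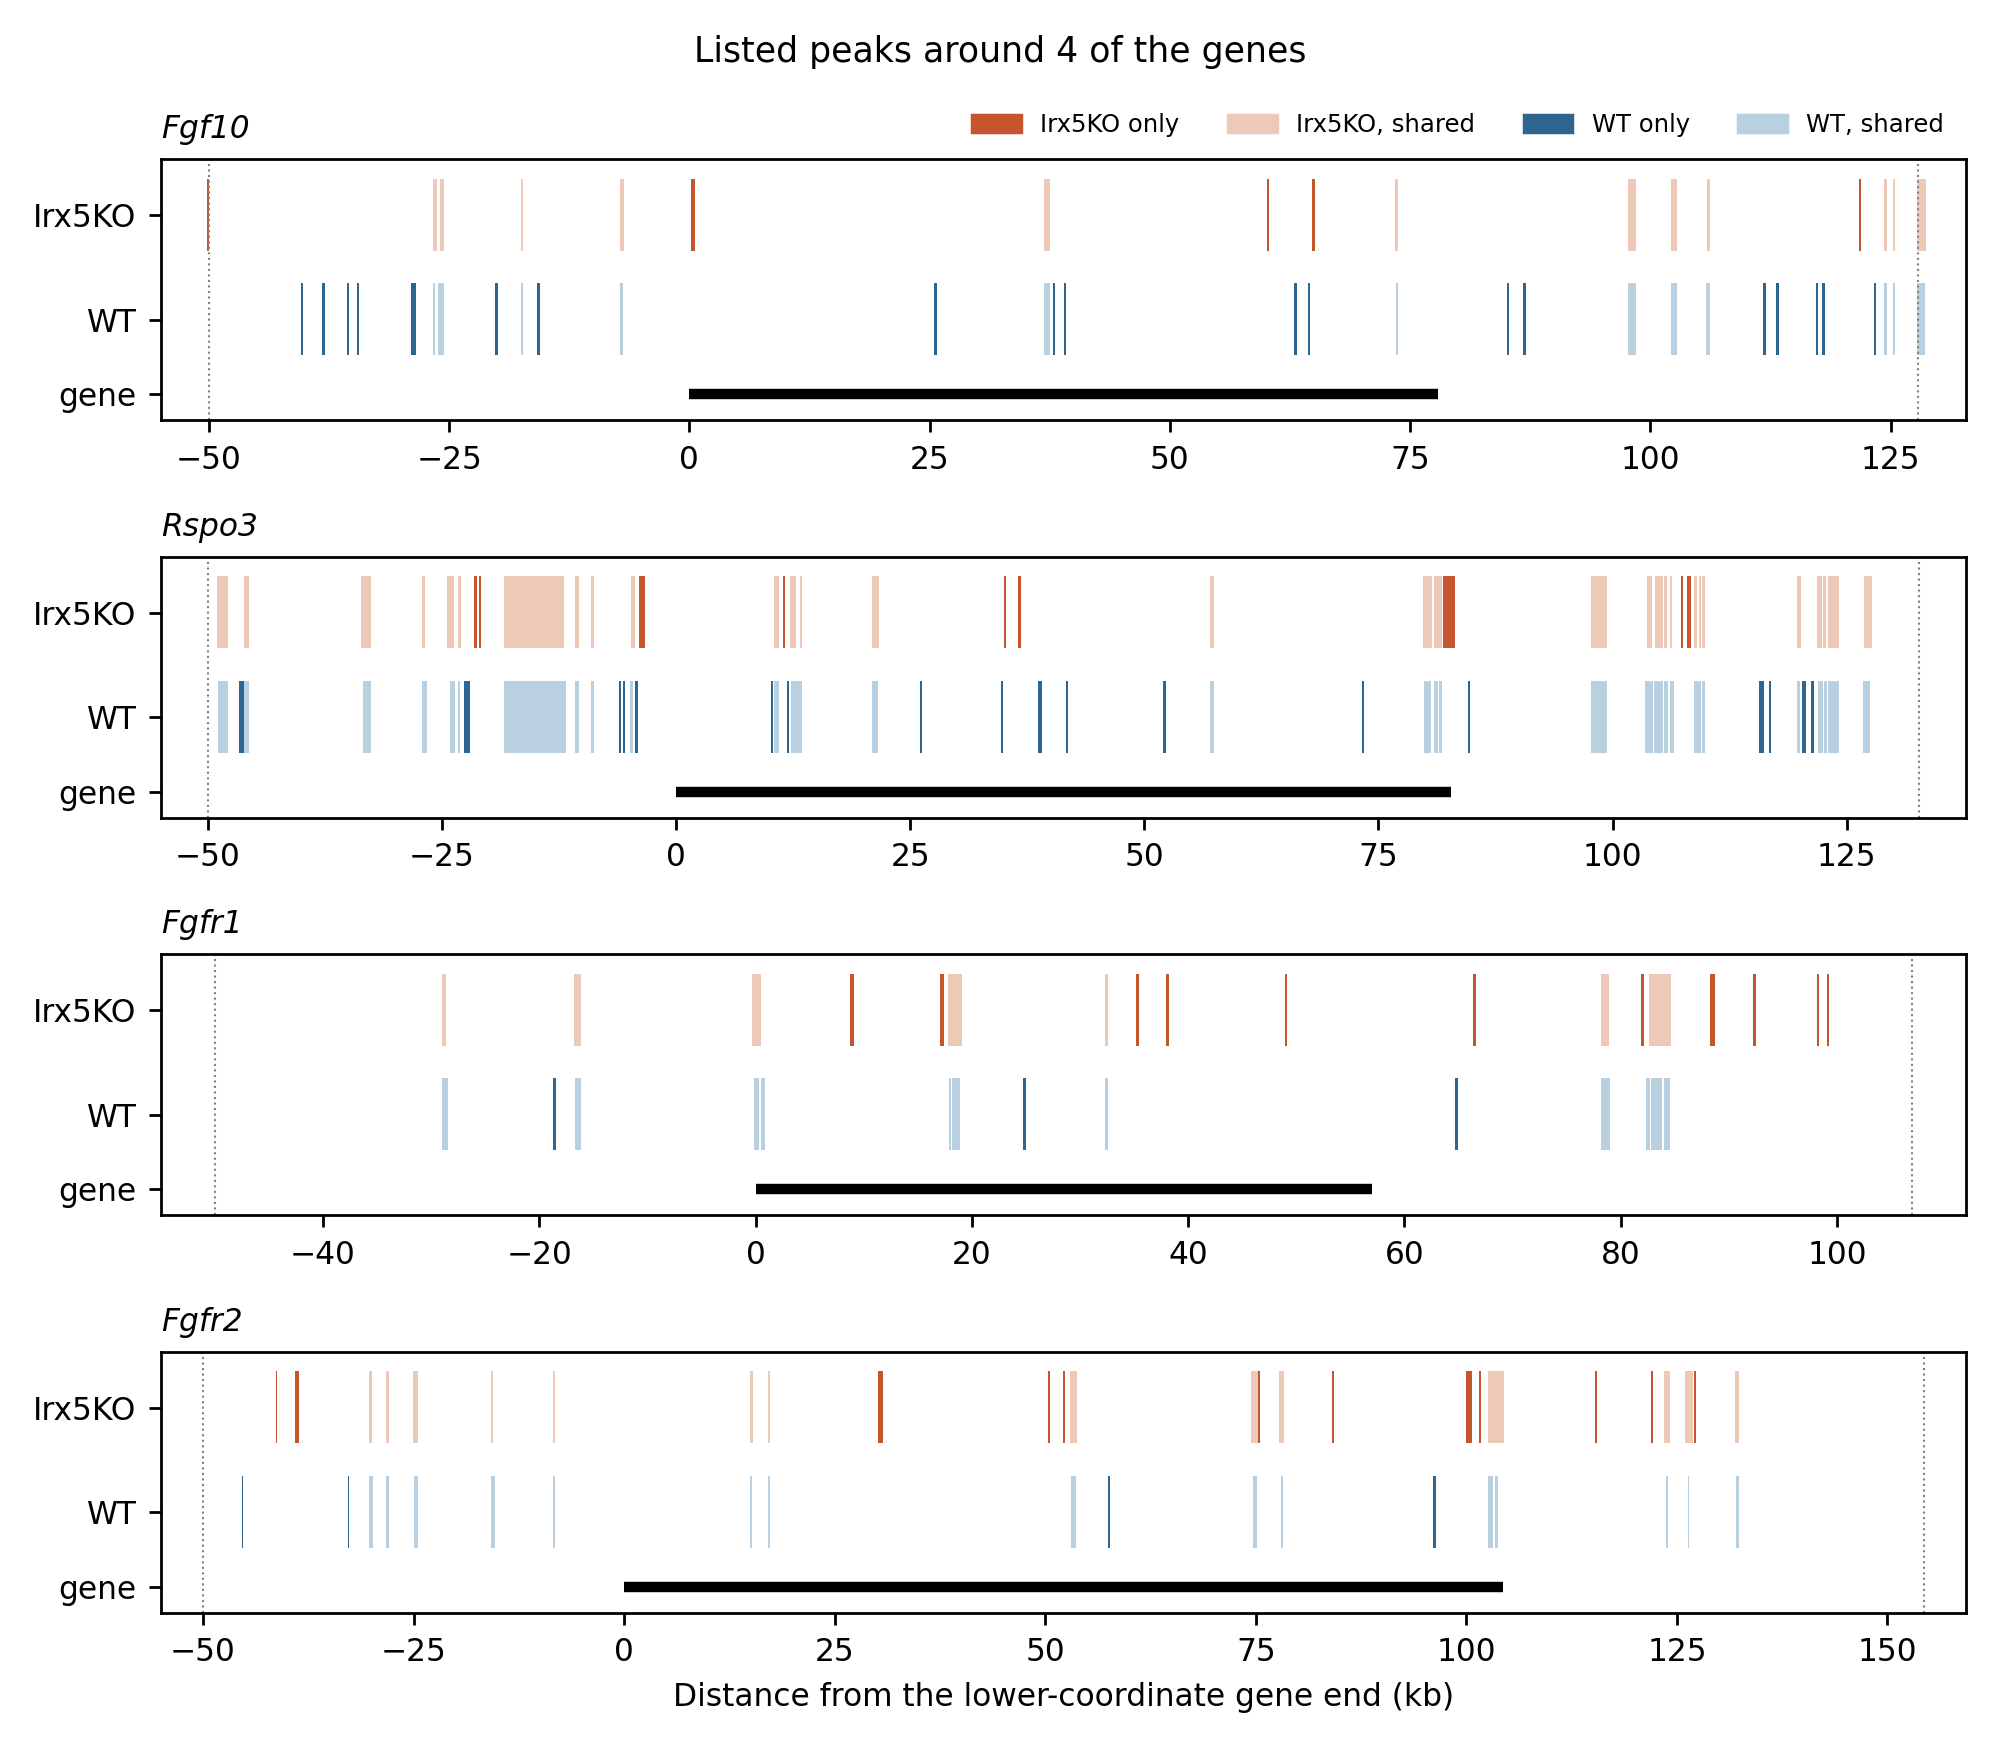
Position of listed peaks around Fgf10, Rspo3, Fgfr1 and Fgfr2, as distance from the gene end of lower coordinate (kb). In each panel the Irx5KO list is above the WT list, the black bar is the gene, dotted lines are the borders of the locus, and dark bars are genotype-only peaks. WT-only peaks lie in both flanks and in the gene body of Fgf10 but not around its start. Irx5KO-only peaks gather in and above Fgfr1 and near the upper end of Fgfr2.

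The receptor genes showed the opposite direction to Fgf10. Fgfr2 (chromosome 7, 130162451 to 130266808), which encodes the epithelial receptor of FGF7 and FGF10, had 13 peaks in Irx5KO only and 4 in WT only, with 14 and 15 shared. Of all coding genes 3.02% had a difference at least as far towards Irx5KO, again without scaling by length. The Fgfr2 locus spans 204 kb, against the median of 117 kb. Irx5KO peaks covered 6.07% of the locus and WT peaks 3.29%, or 1.84 times as many bases. The gene body held 8 Irx5KO-only and 2 WT-only peaks and the upstream flank 3 and 0. Near the start, Irx5KO-only peaks lay 2588, 3668 and 4088 bp inside the gene. These peaks had low scores, and 0 of the 13 and 0 of the 4 were in the upper 50% of their list. No other coding gene overlapped this locus.

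Fgfr1 (chromosome 8, 25518759 to 25575718) had 11 peaks in Irx5KO only and 3 in WT only, with 8 and 12 shared. A difference at least as far towards Irx5KO occurred in 4.59% of coding genes, with a locus of 157 kb against the median of 117 kb. The gene body held 5 Irx5KO-only and 1 WT-only peak, and the flank above it 6 and 1. The highest-scored Irx5KO-only peak (chr8:25607051-25607450) was at percentile 67.8 and lay 31.333 kb above the gene. A stretch of 33.16 kb there (chr8:25603301-25636460) without a WT peak ran past the border of the locus at 25625718. Its part inside the locus held 4 Irx5KO-only peaks. The Fgfr1 locus also contains Letm2 and Nsd3, so the peaks above Fgfr1 cannot be assigned to 1 gene.

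Of the R-spondin genes, Rspo3 (chromosome 10, 29453106 to 29535867) carried 9 Irx5KO-only and 18 WT-only peaks, beside 30 shared peaks in each list. It had the most peaks of the 9 genes, 39 in Irx5KO and 48 in WT. Many of its genotype-only peaks lay close to a peak of the other list, 6 of 9 in Irx5KO and 8 of 18 in WT within 500 bp. The median distance was 350 bp for Irx5KO-only and 885 bp for WT-only peaks at Rspo3, against 2620 bp and 4210 bp at Fgf10. The total under peaks at Rspo3 was close in both lists, 15.4% of the locus in Irx5KO and 16.5% in WT. The highest-scored WT-only peak of Rspo3 (chr10:29487841-29488060), at percentile 68.4, was 60 bp from the nearest Irx5KO peak. Its highest-scored peak was shared, 6.35 kb wide in Irx5KO and 6.66 kb in WT, and lay below the lower gene end.

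Rspo2 (chromosome 15, 43020788 to 43171594) had 13 peaks in Irx5KO only and 19 in WT only, with 17 and 18 shared. The flank above the gene held 2 Irx5KO-only and 6 WT-only peaks, and a stretch of 37.37 kb across the upper gene end (chr15:43170361-43207730) without an Irx5KO peak held 6 WT-only peaks. The single genotype-only peak in the top 10% of its list among the 9 genes was an Irx5KO-only peak below Rspo2 (chr15:43000261-43000840), 580 bp wide and at percentile 99.1. A WT-only peak at percentile 0.969 of its own list (chr15:42999471-42999790) lay 470 bp from it. In both lists a shared peak of 6.6 kb (chr15:43141391-43147990) lay inside the gene.

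Rspo1 (chromosome 4, 124986401 to 125009102) had 7 peaks in Irx5KO only and 2 in WT only, with 7 shared in each list. It was the R-spondin gene with more peaks in Irx5KO, 14 against 9 in WT, and peaks covered 7290 bp in Irx5KO and 3720 bp in WT. Among its Irx5KO-only peaks 2 of 7 were in the upper 50% by score, and among its WT-only peaks 0 of 2 were. The highest-scored Irx5KO-only peak (chr4:124977001-124977210) lay 9.22 kb before the start. Cdca8, 9930104L06Rik, Gnl2 and Dnali1 share this locus, more neighbours than at any other of the 9 genes.

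Tgfb2 (chromosome 1, 186622787 to 186709697) had 6 Irx5KO-only and 11 WT-only peaks, beside 15 shared in each list. The difference lay in the gene body, with 3 Irx5KO-only and 9 WT-only peaks there and 3 and 2 in the flanks together. The highest-scored WT-only peak (chr1:186606051-186606290) was at percentile 59.3 and lay downstream of the gene. Hgf (chromosome 5, 16553495 to 16619439) had 7 Irx5KO-only and 12 WT-only peaks, beside 12 shared in each list. At Hgf the ranks went the other way from the numbers, with 3 of 7 Irx5KO-only and 0 of 12 WT-only peaks in the upper 50% of their list. The highest-scored Irx5KO-only peak of Hgf (chr5:16545821-16546090), at percentile 64.5, lay 7.405 kb before the start.

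Genotype-only peaks had low scores in both lists. Their median percentile at the 9 genes was 16.6 in Irx5KO and 16.5 in WT, against 60.3 and 61.5 for the shared peaks there. Over the whole lists the medians were 15.8 and 18.2 for genotype-only and 60.3 and 62.7 for shared peaks. In the upper 50% lay 8 of 75 Irx5KO-only and 11 of 92 WT-only peaks of the 9 genes. Over the whole lists 8.03% of Irx5KO-only and 8.79% of WT-only peaks lay there. Shared peaks overlapped by as little as 70 bp in Irx5KO and 50 bp in WT, and the closest genotype-only peaks were 60 bp from the other list. All 6 peaks of 6000 bp or more at these genes, in each list, were shared.

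**Figure D5:**
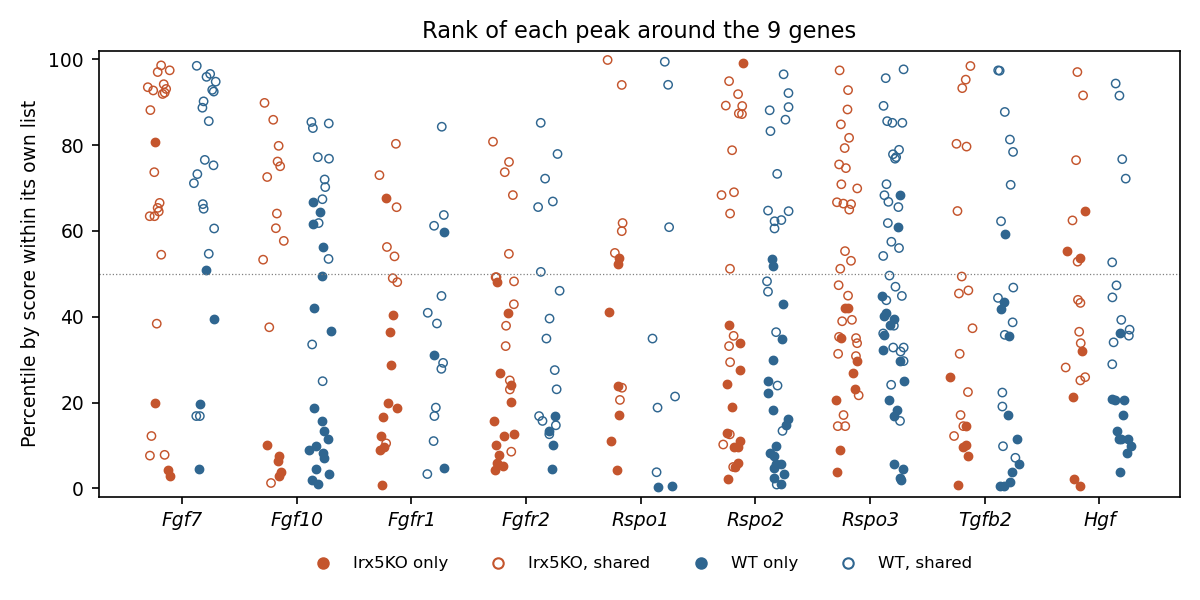
Percentile by score of each peak within its own list, for the 9 genes, with Irx5KO points left and WT points right. Filled points are genotype-only and open points shared peaks. Most filled points lie under the dotted line at 50, and the single one near the top is the Irx5KO-only peak below Rspo2 at percentile 99.1.

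Several choices moved single genes across the 2-fold rule. Rspo3 had 9 peaks in Irx5KO only and 16 in WT only with lists of equal length, and so fell short of it. Rspo1 had 3 and 1 within 10 kb and Fgfr2 15 and 8 within 100 kb, each with Irx5KO first, and both fell short there. Tgfb2 came past it towards WT under 3 choices, with 6 and 12 where 50% of a peak had to be covered, 4 and 10 where a peak within 500 bp counted as shared, and 4 and 10 within 10 kb. In the upper 50% by score none of the 9 genes had 5 genotype-only peaks.

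Lists of further genes of these pathways differed in direction. In 4 lists Irx5KO-only peaks were more numerous. They numbered 78 against 37 WT-only for FGF ligands and receptors, and 31 against 26 for FGF transducers and targets. For the R-spondin family and receptors they numbered 58 against 46, and for TGF-beta and HGF 68 against 43. Over all 5 lists the Irx5KO share was 56.5%, against 49.3% over all coding genes. The list of other papilla signals, the nearest in kind to the ligand genes, held 55 Irx5KO-only and 71 WT-only peaks. Igf1 and Edn3 made that gap, and the remaining genes of this list had more Irx5KO-only than WT-only peaks in total. The median Irx5KO-only share per gene in it was 51.9%. Of the 41 genes in 5 lists of FGF, R-spondin, TGF-beta, HGF and other papilla signals, 13 were past the 2-fold rule towards Irx5KO and 3 towards WT, against 21.8% and 16.7% of all coding genes. Among 10 further FGF ligands and receptors 6 were past it towards Irx5KO and 0 towards WT. They were Fgf1 with 14 Irx5KO-only and 4 WT-only peaks, Fgf2 with 8 and 2, Fgf18 with 10 and 5, Fgf20 with 6 and 3, Fgf22 with 9 and 4, and Fgfr3 with 8 and 1. Fgf18 holds stem cells at rest and is read by Fgfr3. Of 7 transducers and targets of FGF signals, Spry1 with 5 and 2 and Spry2 with 7 and 3, both feedback inhibitors, were past it towards Irx5KO, and the ETS factor gene Etv5 with 4 and 8 towards WT.

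In the list of the R-spondin family and its receptors, Lgr5, a stem cell receptor, had 10 Irx5KO-only and 4 WT-only peaks. Znrf3, whose product removes Frizzled, had 6 and 1. The other 4 genes of that list were not past the rule, among them the remaining R-spondin gene, Rspo4, with 19 and 24. Rspo4 had a start peak in Irx5KO only, where 6.01% of all coding genes did. The HGF receptor gene Met, with 8 and 5, was not past the rule either. Tgfb1 with 8 and 2 and the receptor gene Tgfbr2 with 8 and 3 were past it towards Irx5KO. Among other papilla signals Igf1 with 3 and 15 and Edn3 with 8 and 21 were past it towards WT, as Fgf10 was, and Pdgfa with 8 and 2 towards Irx5KO.

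Markers of HFSC and of other skin cells were set beside these counts. All 9 HFSC markers had a gene-start peak in both lists, where 72.6% of all coding genes did. Their loci held 86 Irx5KO-only and 36 WT-only peaks. The largest gap was at Tcf7l1 with 27 and 8, while Cd34, on which the cells were sorted, had 2 and 4. Of the 9 markers 6 were past the 2-fold rule towards Irx5KO and 1, Cd34, towards WT. The shares of all coding genes were 21.8% and 16.7%. Of 6 dermal papilla markers 5 had a start peak in both lists. Alpl had one in Irx5KO only, where 6.01% of all coding genes did. Their loci held 36 Irx5KO-only and 63 WT-only peaks, with more in WT as at Fgf10 and Rspo3. Most of that gap came from Vcan with 2 and 17 and Corin with 8 and 17. Alpl had 5 and 6, Crabp1 3 and 5 and Prom1 10 and 13, while Sox2 had more in Irx5KO, 8 and 5. Of 6 fibroblast markers 3 had a start peak in both lists and Pdgfra, Dpt and Thy1 in neither, as 17.7% of all coding genes did. The loci of the fibroblast markers held 39 Irx5KO-only and 37 WT-only peaks. Start peaks in WT only were found at Ptprc, Cd74 and Lyz2 of 4 immune markers, at Mlana, Tyr and Kit of 5 melanocyte markers and at Cdh5 of 4 endothelial markers, where 3.73% of all coding genes had one. The loci of the immune markers held 22 Irx5KO-only and 28 WT-only peaks, those of the melanocyte markers 47 and 40, and those of the endothelial markers 34 and 28. Krt1 of 5 epidermal markers had a start peak in Irx5KO only, where 6.01% of all coding genes did. The loci of the epidermal markers held 25 and 28. Of these markers of other skin cells, Pdgfra, Thy1, Cd3e, Tyr, Pecam1 and Krt10 were past the 2-fold rule towards Irx5KO, as 21.8% of all coding genes were. Corin, Vcan, Lum, Cd74, Lyz2, Krt1 and Lor were past it towards WT, as 16.7% of all were. The part of other cell types in the counts at the ligand genes was not tested.

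By the summed difference in 4 counts, those of genotype-only and shared peaks in the 2 lists, the loci most like Fgf10 were Tmem200c (sum 3), Arhgef6 (5) and Isx (5). Tmem200c had 6 peaks in Irx5KO only and 18 in WT only. Those most like Rspo3 were Pdgfc (sum 2), Adss (3) and Rsl1 (3), and Pdgfc had 10 peaks in Irx5KO only and 18 in WT only.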

How the data were processed

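The 2 samples of a genotype share 1 deposited list, per the labels. The submitters' processing notes name mm10 as the build, and Genrich 0.6, Bowtie2, cutadapt 2.9, FastQC, ChIPseeker 1.24.0 and deepTools 3.4.2 as tools. Their roles, the peak settings, any shift for the Tn5 cut and the handling of duplicates were not stated in the sources used here. The deposited score of each peak is the authors' own value, at least 50, and served here to order peaks within their own list. The signal, p-value and q-value columns that the authors deposited hold 0 throughout, and the summit offset was not used. Contigs outside the standard chromosomes, with 1188 Irx5KO and 1733 WT peaks, were left out.

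Gene ends came from a RefSeq table of GRCm38.p6, with starts and strand from the promoter table. Loci were gene bodies plus 50 kb per side, and 1 bp of overlap made a peak shared. Intervals are 95% Wilson intervals. The named genes were the 9 members, their highest-scored peaks, listed pathway genes past the 2-fold rule, and the 3 loci nearest in counts to Fgf10 and Rspo3. All members and lists were chosen with earlier results of these data known. Code was tested on simulated data, and shared counts equalled those of bedtools 2.31.1. Python 3.11.15, numpy 2.4.6, pandas 2.3.3 and matplotlib 3.10.9 were used. Alternatives changed score, overlap, window, assignment and peak width, and 2 for start coverage were added after the data were seen.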

Additional observations from a re-analysis of the deposited data

How the results depend on the processing

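The Irx5KO-only share over the 9 genes ran from 41.3% to 48.4% under the 8 alternatives, within its interval. Of 71 values for single genes 64 stayed within their own interval and 7 moved out of it, 6 of them in the upper 50% by score, where few peaks remained. The limit of 2000 bp on peak width left every count of genotype-only peaks the same, and none of these peaks was wider. Its values are among the 64 and do not add to the check. The numbers past the 2-fold rule were 0 towards Irx5KO and 0 towards WT in the upper 50% by score, where none of the 9 reached 5 genotype-only peaks. Of all coding genes 0.288% and 0.736% were past it there. Towards Irx5KO 2 genes were past it within 10 kb, within 100 kb and by nearest gene end. The shares of all coding genes were 9.26%, 19.3% and 8.62%. Under the other alternatives 3 genes were past it towards Irx5KO, where 21.6% to 25.1% of all were. Towards WT 1 gene, Fgf10, was past it with lists of equal length and 1, again Fgf10, with assignment to the nearest gene end, where 14.1% and 11.1% of all coding genes were. It was 3, with Tgfb2 added to Fgf10 and Rspo3, under 50% coverage, the 500 bp distance and the 10 kb window, where 14.9%, 17.6% and 8.90% of all were. With start windows of 3000 bp, 8 genes had a start peak in both lists, 1 in Irx5KO alone and 0 in WT alone. The shares of all coding genes for the same were 83.9%, 4.61% and 3.12%. In the upper 50% of both lists 0 had one in both and 0 in WT only, against 36.5% and 2.29% of all. More covered bases at the start were then found in Irx5KO at 2 genes and in WT at 0, against 34.6% and 12.6% of all. The causes were not tested. No paired analysis was possible because each genotype has 1 pooled list. For the same reason no replicate could be left out, and differences in depth or library preparation cannot be told apart from genotype.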
